A study of Homo sapiens with 2 samples.

Results

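LNCaP_FGC is a human prostate carcinoma line, and the cells described here are those in which the transcripts of 5 proliferation genes were nearly absent. The 5 genes are MKI67, TOP2A, CDK1, CCNB1 and RRM2, and a cell was chosen when its UMIs (unique molecular identifiers, each counted as 1 captured transcript) of the 5 genes summed to at most 1. Of 1850 LNCaP_FGC cells, 412 met this rule (22.3%, exact binomial 95% interval 20.4 to 24.2), and they are called marker-low. They were set against 1176 marker-high cells with a sum of 5 or more. A further 262 cells held 2 to 4 UMIs and were kept apart. The sum was 0 in 223 marker-low cells and 1 in 189, 134 cells just outside the limit had a sum of 2, and over all cells the median sum was 12 and the highest 170. The 5 genes chose the cells and are left out of every result.

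Single-cell RNA-Seq with 10x Genomics 3′ chemistry was run on 1 library of LNCaP_FGC and 1 of LNCaP_C4-2B, a strain of the same origin that grows after castration, both from cultures without treatment in RPMI1640 with 10% FBS and 1% Pen/Strep. LNCaP_FGC carries an ETV1 rearrangement among other alterations and was never selected as a single clone, so its cells can differ from one another in genotype. Cells of a library do not stand in for replicates, and with 1 library per line none of the differences was tested for significance. Every interval covers counting error only, and the libraries carry different batch labels, so line and batch cannot be told apart. The same rule gave 499 marker-low and 1050 marker-high cells of 1850 in LNCaP_C4-2B, and the libraries shared 0 cell barcodes.

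Dividing cells switch on genes in waves. E2F factors drive the genes of DNA replication as a cell leaves G1, and the DREAM and B-MYB complexes time the genes of mitosis through a promoter element named the cell cycle genes homology region. In cells that have left the cycle or wait in G1, the retinoblastoma family and DREAM hold both waves down. Prostate luminal cells add a differentiation program induced by androgen, which includes the secreted proteases KLK3 (prostate-specific antigen) and KLK2.

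Promoter sequences are shown for 2 sets of genes that the results below turn on, since the sets carry different short motifs. The 300 bases from 250 before to 50 after the start of each gene were taken from RefSeq (GRCh38.p14), first start listed per gene, and searched on both strands. The motif TTTGAA, the core of the cell cycle genes homology region, was found in 30 of 43 genes of mitosis and cytokinesis with a sequence (69.8%), in 0 of 35 genes of replication licensing and the replication fork, and in 15.4% of all 27305 promoters. The E2F-like motif TTTNNCGC was found in 3 of the 43 (6.98%), in 21 of the 35 (60%) and in 6.90% of all promoters. The promoters of all genes include many that these cells do not express. Among the 8965 compared genes with a sequence, the shares were 9.25% for TTTGAA and 11.2% for TTTNNCGC. These are 79.3% of the 11308 genes compared, and genes without a sequence are left out of the shares. A match is a description of letters and not a site of binding. The following 4 mitosis genes and 2 replication genes show the 150 bases before the start, 5′ to 3′ on the strand of the gene, with the motif of the set in capitals as it stands on that strand (TTCAAA and GCG followed by any 2 bases and AAA are the reverse complements).
ASPM (chr1:197146670-197146819, minus strand): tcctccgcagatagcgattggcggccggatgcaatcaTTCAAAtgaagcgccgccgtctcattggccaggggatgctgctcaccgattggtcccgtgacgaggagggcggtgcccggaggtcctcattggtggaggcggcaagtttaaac
BUB1B (chr15:40160919-40161068, plus strand): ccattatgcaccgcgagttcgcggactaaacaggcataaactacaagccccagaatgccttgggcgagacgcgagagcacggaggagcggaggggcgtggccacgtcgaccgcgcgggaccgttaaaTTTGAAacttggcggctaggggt
HMMR (chr5:163460482-163460631, plus strand): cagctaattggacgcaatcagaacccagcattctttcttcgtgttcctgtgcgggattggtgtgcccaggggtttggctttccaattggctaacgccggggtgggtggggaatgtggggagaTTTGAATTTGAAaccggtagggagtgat
KIF11 (chr10:92592980-92593129, plus strand): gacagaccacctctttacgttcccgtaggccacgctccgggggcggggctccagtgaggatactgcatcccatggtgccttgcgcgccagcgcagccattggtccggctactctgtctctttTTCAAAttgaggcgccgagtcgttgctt
PCNA (chr20:5126623-5126772, minus strand): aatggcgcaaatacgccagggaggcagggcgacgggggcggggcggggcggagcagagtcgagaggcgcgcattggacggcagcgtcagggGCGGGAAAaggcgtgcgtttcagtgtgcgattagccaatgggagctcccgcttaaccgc
UHRF1 (chr19:4909351-4909500, plus strand): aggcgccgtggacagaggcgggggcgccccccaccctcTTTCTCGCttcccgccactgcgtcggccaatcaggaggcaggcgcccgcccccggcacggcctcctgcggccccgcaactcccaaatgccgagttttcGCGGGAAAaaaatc
ASPM, which focuses spindle poles, had its match 113 bases before the start, whereas in BUB1B (spindle checkpoint kinase), HMMR (a spindle protein) and KIF11 (the motor that separates spindle poles) the first match lay 23 to 28 bases before it. HMMR held 2 copies side by side.

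The 412 marker-low cells held 7066595 UMIs and the 1176 marker-high cells 23343956. A marker-low cell had between 9085 and 40019 UMIs, with a median of 16670, and a marker-high cell between 9050 and 51088, with a median of 19370.5. The groups overlapped over nearly their whole range, but marker-low cells were shallower at the median. They also had fewer genes per cell (median 4501.5 against 5133), a larger share of mitochondrial transcripts (median 6.88% against 5.76%) and a larger share of the nuclear noncoding RNAs MALAT1 and NEAT1 (median 3.44% against 1.39%). The authors had thinned the counts of each line to a common mean per cell, which left the cells of a line unequal in UMIs. UMIs per cell are not taken here as a measure of RNA content. Whether depth, mitochondrial share or nuclear RNA share has a part in the differences below was not tested beyond the alternatives given.

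Levels are given as CPM, the UMIs of a gene summed over the cells of a group and scaled by the total of that group, at which 1 UMI in marker-low cells is 0.142 CPM, and ratios are marker-low over marker-high with an exact conditional 95% interval. A gene was counted as higher or lower past 1.5-fold. Of 11308 genes with at least 100 UMIs over both groups, 643 were higher (5.69%) and 1404 lower (12.4%) in marker-low cells, and the median gene stood at a log2 ratio of -0.05. Among them 137 were at least 2-fold higher, 654 at least 2-fold lower and 146 at least 10-fold lower. Without scaling to the total, in UMIs per cell, the median gene fell by 0.26 on the log2 scale and the counts became 302 higher and 2439 lower, which took the higher genes to 11.0% of all called genes against 31.4% by CPM. Since the cells were chosen by proliferation genes of the same cells, these counts describe the groups and support nothing further.

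The cells were also called by other genes of the cycle. These calls use the same cells as the rule, so they describe the label and are no independent test of it. With the 5 genes removed from the reference lists of cell cycle scoring, 409 of 412 marker-low cells were called G1 (99.3%, exact interval 97.9 to 99.8), 3 S and 0 G2M, which allows a share of up to 0.891%. Of the marker-high cells 160 of 1176 were called G1 (13.6%, 11.7 to 15.7), 457 S and 559 G2M. The cells with 2 to 4 UMIs lay close to the marker-low cells, with 231 of 262 in G1 (88.2%, 83.6 to 91.8). Marker-low cells made up 409 of the 800 cells called G1 (51.1%, 47.6 to 54.6), so about as many G1 calls fell outside the rule as inside it. Phase calls alone do not tell a G1 cell from one that has left the cycle, and no marker used here tells them apart.

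Genes of mitosis and cytokinesis were lower without exception. All 50 listed genes were past the limit, with a median log2 ratio of -5.04 and summed levels of 626 CPM in marker-low cells and 5915 CPM in marker-high cells. ASPM had 7 UMIs in marker-low cells (0.991 CPM) and 2345 in marker-high cells (100.5 CPM), a 101-fold lower level (49.1 to 253). KIF20A, a kinesin of cytokinesis, was 88.5-fold lower (34.5 to 325, on 4 UMIs), the kinetochore gene KNL1 81.9-fold lower (35 to 253, on 5 UMIs), and DLGAP5, a spindle assembly gene, 77.4-fold lower (46.8 to 138). BUB1B stood at 1.42 CPM against 94.2 CPM, HMMR at 3.11 CPM against 193 CPM and KIF11 at 1.13 CPM against 60.7 CPM. The gene for cyclin A2, CCNA2, was 55.4-fold lower (29.1 to 121). The list ended with smaller ratios. The tubulin gene TUBB4B, which is not confined to the spindle, stood at 251 CPM in marker-low cells and 575 CPM in marker-high cells, and CKAP2, a spindle-associated gene, at 64.7 CPM against 167 CPM.

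At equal depth single mitosis genes were at 0 in most marker-low cells, while the sum of the list was not. Cells were thinned to 11452 UMIs, which left 365 marker-low and 1068 marker-high cells. The 50 genes together had a median of 7 UMIs per marker-low cell (lowest 0, highest 23) and 56.5 per marker-high cell (lowest 3, highest 247). The ranges overlapped, and 1 marker-low cell held none of these transcripts. TUBB4B gave a mean of 2.84 UMIs to the sum in marker-low cells and CKAP2 0.690, against 0.0137 from ASPM and 0.0110 from KNL1. ASPM was seen in 5 of the 365 marker-low cells (1.37%, 0.446 to 3.17) and in 524 of the 1068 marker-high cells (49.1%, 46.0 to 52.1), and before thinning in 1.70% and 62.6% of the cells of each group. No cell type that lacks these genes was in the library, and RNA free in the suspension was not measured.

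The replication genes followed the same direction with smaller ratios. The counts of this paragraph stand beside 12.4% lower over all genes. All 42 genes of licensing and the fork were lower, with a median log2 ratio of -2.79. MCM10, which starts the replicative helicase, stood at 1.42 CPM against 91.0 CPM (64.3-fold lower, 34.9 to 134), and CDC45, a helicase subunit, at 0.566 CPM against 23.1 CPM. MCM2, of the MCM helicase ring, was 8.97-fold lower (7.25 to 11.2) and PCNA, the sliding clamp, 7.32-fold lower (6.22 to 8.67). PCNA was seen in 20.5% of marker-low cells at equal depth (16.5 to 25.1) and in 75.2% of marker-high cells (72.5 to 77.8). RPA3, a subunit of the single-strand binding protein, and PRIM2, of primase, differed least, at 1.71-fold and 1.86-fold lower. Of 26 genes of homologous recombination and repair, 21 were lower and 5 within the limit (median -2.89). The helicase gene BLM had 0.566 CPM in marker-low cells and 21.1 CPM in marker-high cells, and BRCA2 was 21.1-fold lower (13.6 to 34.7), whereas the damage-response genes ATM (43.59 CPM against 43.99 CPM) and TP53BP1 (31.3 CPM against 30.8 CPM) lay near a ratio of 1. Of 13 genes of nucleotide supply 9 were lower, led by TK1, thymidine kinase (18.8-fold, 13.3 to 27.6) and TYMS, thymidylate synthase (14.9-fold, 12.1 to 18.6), while the purine synthesis gene ATIC stood at 85.0 CPM against 79.8 CPM.

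Replication-dependent histone genes split into both directions, with 8 of 15 lower and 3 higher, against 12.4% lower and 5.69% higher over all genes. HIST1H1B, the linker histone H1.5, had the largest fall among genes of at least 50 CPM, with 12 UMIs (1.70 CPM) against 4096 UMIs (175 CPM). HIST1H3B was 51.3-fold lower (26 to 119). In the other direction HIST2H2BE stood at 41.9 CPM in marker-low cells and 13.1 CPM in marker-high cells, a ratio of 3.21 (2.72 to 3.77), and HIST3H2A at 36.4 CPM against 21.5 CPM. These libraries were made from poly(A) RNA, and replication-dependent histone transcripts usually lack a poly(A) tail, so the levels are those of the captured share. Among 11 histone variant genes 5 were lower, including CENPA, the centromeric histone (36.6-fold, 14.2 to 135), and H2AFX (9.15-fold, 7.81 to 10.8). H2AFJ was higher at 217 CPM against 121 CPM, and H3F3A stood at 826 CPM against 786 CPM.

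The regulators that open S phase were lower, while the brakes on the cycle did not move as 1 group. Of 15 genes for G1 cyclins, kinases and E2F factors 10 were lower and 0 higher (median -1.27), against 12.4% lower and 5.69% higher over all genes. E2F1 stood at 3.54 CPM in marker-low cells and 42.2 CPM in marker-high cells, cyclin E2 (CCNE2) at 12.6 CPM against 106 CPM, the phosphatase CDC25A at 3.25 CPM against 22.1 CPM, CDK2 at 7.36 CPM against 38.7 CPM and CDK4 at 102 CPM against 160 CPM. The gene for cyclin D1, CCND1, which responds to growth signals, was within the limit at 288 CPM against 237 CPM, as was MYC at 112 CPM against 100.2 CPM. Among 16 CDK inhibitors, pocket proteins and DREAM subunits 6 were lower and 2 higher, beside the same shares of 12.4% and 5.69% over all genes. CDKN2C (p18) had the lowest ratio of the list, with 3.11 CPM against 42.2 CPM, and the pocket protein RBL1 stood at 10.3 CPM against 43.6 CPM. CDKN1A (p21) was higher with a ratio of 1.62 (1.495 to 1.758), and CDKN1C (p57) with 1.69 (1.161 to 2.424, on 47 UMIs). RBL2, the pocket protein of resting cells, stood at 57.03 CPM against 41.34 CPM and CDKN1B (p27) at 29.2 CPM against 37.7 CPM, both within the limit. CDK6 and BCL2 had 79 and 94 UMIs over all cells and were not compared.

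Genes of growth arrest and of FOXO targets were the list with the most members on the higher side. Of 29 genes 20 were higher, 1 lower and 8 within the limit, at a median log2 ratio of 0.74, against 5.69% higher and a median of -0.05 over all genes. BTG1, an antiproliferative gene that slows exit from rest, stood at 468 CPM in marker-low cells and 239 CPM in marker-high cells (ratio 1.96, 1.87 to 2.04), and its relative BTG2 at 25.3 CPM against 15.5 CPM. CCNG2, an unusual cyclin linked to arrest, had a ratio of 2.34 (2.09 to 2.62), the stress sensor SESN1 2.19 (1.90 to 2.53), PNRC1 2.18 (1.94 to 2.45) and TXNIP, an inhibitor of glucose uptake, 1.65 (1.49 to 1.83). BTG3 was the exception, at 51.1 CPM against 124 CPM. In single cells the list overlapped between groups, with a median of 25 UMIs per marker-low cell (7 to 63) and 16 per marker-high cell (4 to 52) at equal depth. Of 12 BCL2 family genes 1 was higher and 1 lower (PMAIP1, log2 ratio -0.96), which is near the shares over all genes (5.69% higher and 12.4% lower). Of 18 senescence and secretory genes only 6 reached the minimum of UMIs, of which 1 was higher and 2 lower, too few to read against these shares. The rule for named genes also gave further genes of arrest, stress or apoptosis, and 4 of these are described here. TP53INP1, an autophagy and arrest gene, had a ratio of 2.42 (2.22 to 2.63), GDF15, a secreted stress cytokine, stood at 157 CPM against 86.7 CPM, and AEN, an apoptosis nuclease, at 14.01 CPM against 23.35 CPM, which is lower. MDM2, a ubiquitin ligase gene, was within the limit (162 CPM against 138 CPM).

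**Figure D1:**
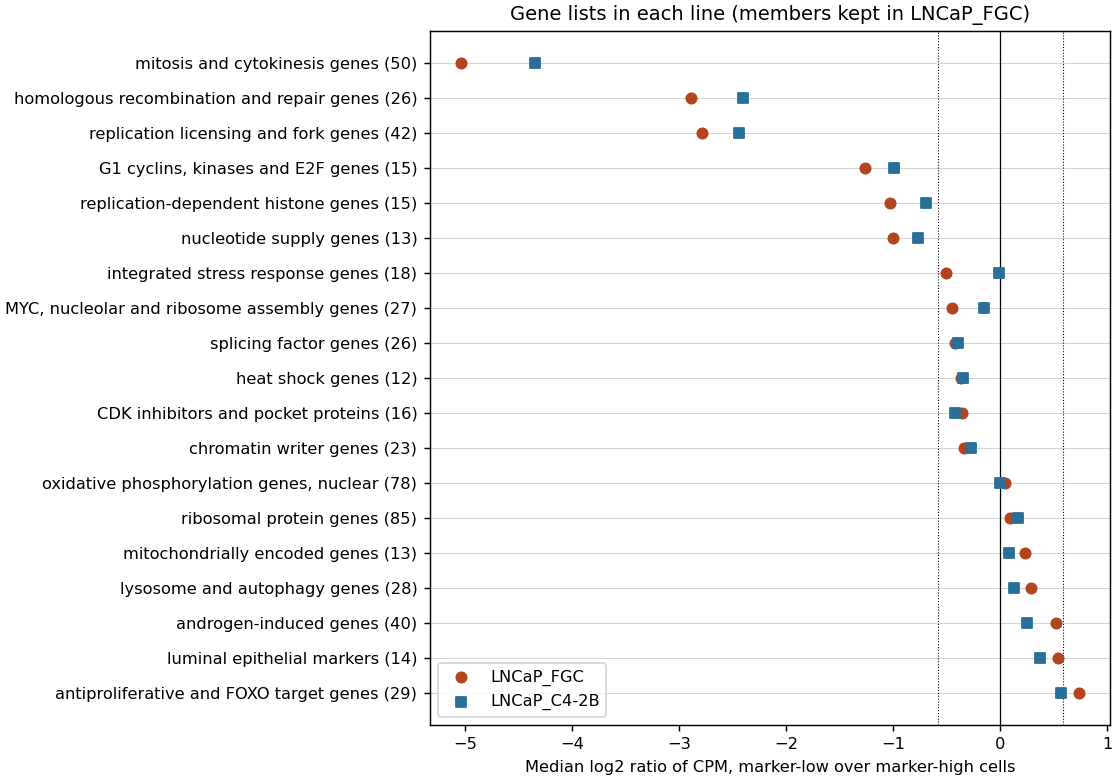
Median log2 ratio of CPM (marker-low over marker-high cells, horizontal axis) for 19 gene lists in LNCaP_FGC (circles) and LNCaP_C4-2B (squares), with dotted lines at 1.5-fold and the number of members kept in LNCaP_FGC in parentheses. The mitosis list lies at -5.04 in LNCaP_FGC, and the list of antiproliferative and FOXO target genes, at 0.74, is the only plotted list past the upper dotted line there.

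The upper end was led by ACPP, a luminal marker, and TMPRSS2 had the highest ratio of the androgen-induced genes. ACPP (also named ACP3, prostatic acid phosphatase; chromosome 3, 132317369 to 132368302 on GRCh38) had the highest ratio among genes of at least 50 CPM. It had 875 UMIs in marker-low cells (124 CPM) and 463 in marker-high cells (19.8 CPM), a ratio of 6.24 (5.572 to 7.002). At equal depth ACPP was seen in 37.5% of marker-low cells (32.5 to 42.7), with up to 26 UMIs in a cell, and in 12.6% of marker-high cells (10.7 to 14.8), with up to 8 (43.2% and 20.2% of cells before thinning). TMPRSS2, an androgen-induced serine protease gene, stood at 233 CPM against 75.6 CPM (3.08, 2.88 to 3.30) and was seen in 84.1% of marker-low cells (79.9 to 87.7) against 44.9% of marker-high cells (41.8 to 47.9), or 88.1% and 57.2% before thinning. TMPRSS2 overlaps MX1 on the opposite strand by 5772 bases.

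Of 40 androgen-induced genes 16 were higher, 1 lower and 23 within the limit (median log2 ratio 0.52), against 5.69% higher and 12.4% lower over all genes. KLK3 stood at 1246 CPM in marker-low cells and 613 CPM in marker-high cells (2.03, 1.98 to 2.09), and KLK2 at 250.2 CPM against 131 CPM (1.92, 1.81 to 2.03). KLK3 varied widely among marker-low cells, with a median of 14 thinned UMIs, 0 in 21.6% of cells and up to 61, against a median of 3 and up to 40 in marker-high cells. The single lower member was ATAD2 (36.8 CPM against 267 CPM), a chromatin ATPase gene that is also an E2F target. In the same direction as the induced genes lay CAMK2N1, from the list of androgen-repressed and inactivating genes, at 460 CPM against 198 CPM (2.32, 2.22 to 2.42), while UGT2B15, which inactivates androgens, stood at 11.3 CPM against 21.4 CPM. That list of 10 genes had 2 higher and 2 lower.

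Of 17 factors that act with androgen signalling 1 was higher, 0 lower and 16 within the limit, where 5.69% of all genes were higher and 12.4% lower. The pioneer factor FOXA1 stood at 219 CPM in marker-low cells and 229 CPM in marker-high cells and HOXB13, a homeobox factor, at 164 CPM against 154 CPM, both within it. The coactivator gene NCOA3 was higher, at 33.3 CPM against 18.8 CPM. Among 14 luminal markers 5 were higher and 0 lower, while CDH1 (148 CPM against 134 CPM) and EPCAM (41.6 CPM against 51.2 CPM) were within it. Markers of other cell types were nearly absent. Over the 10 fibroblast, 10 immune, 10 endothelial and erythroid and 10 non-prostate epithelial markers, the summed levels were 22.2, 1.98, 5.94 and 5.94 CPM in marker-low cells and 22.1, 1.63, 2.70 and 6.34 CPM in marker-high cells, with 3, 7, 6 and 3 of the genes at 0 in both groups. VWF made up most of the endothelial sum, with 41 UMIs in marker-low cells (5.80 CPM) and 59 in marker-high cells (2.53 CPM). By CPM it was higher in marker-low cells, past the limit. CD68 was the only immune marker seen in marker-low cells.

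Several genes with other functions stood at the upper end. MAF, a transcription factor gene, stood at 330 CPM in marker-low cells and 114 CPM in marker-high cells (2.90, 2.75 to 3.07) and ADAMTS1, a secreted metalloprotease gene, at 493 CPM against 201 CPM. COLCA1, a noncoding gene that overlaps POU2AF3 on the opposite strand by 6953 bases, stood at 88.4 CPM against 26.1 CPM. SYT4, a vesicle gene of the neuroendocrine and neuronal list, stood at 166 CPM against 59.7 CPM. Of the 18 genes of that list 6 reached the minimum of UMIs, with 2 higher, 2 lower and 2 within the limit, and STMN1 lowest at a log2 ratio of -1.66. Over all genes 5.69% were higher and 12.4% lower, and 6 genes are too few to read against these shares. AGR2, a secretory pathway disulfide isomerase, stood at 168 CPM against 65.2 CPM. PEG3, an imprinted zinc finger gene (chromosome 19, 56810077 to 56840728), stood at 307 CPM against 107 CPM. The gene body of ZIM2 covers the whole of PEG3 on the same strand, so reads of these genes may be shared, and the noncoding gene AC006115.2, at 101 CPM against 33.5 CPM, could not be placed here. TWIST1, a transcription factor gene of the mesenchymal list, had a ratio of 2.42 (2.10 to 2.79) at 48.26 CPM against 19.96 CPM, while FN1 (138 CPM against 104 CPM) and ITGB1 (297 CPM against 302 CPM) were within the limit. Among chromatin genes KDM5B, a histone demethylase, was higher (129 CPM against 69.7 CPM), and UHRF1 and HELLS, which serve DNA methylation at replication, were 9.41-fold and 8.86-fold lower.

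The noncoding RNAs of the nucleus carried the largest mass of the difference. MALAT1 took 35448 CPM in marker-low cells and 15212 CPM in marker-high cells (2.33, 2.32 to 2.34), with a median of 362 thinned UMIs per marker-low cell and 149.5 per marker-high cell. NEAT1, the scaffold of paraspeckles, stood at 3702 CPM against 1480 CPM (2.50, 2.46 to 2.54). After leaving out the cells with the highest share of MALAT1, an alternative chosen after seeing the data that kept 288 marker-low and 1153 marker-high cells, 569 genes were higher and 1362 lower, of which 458 and 1215 were called before.

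The counts of the next lists stand beside 5.69% higher and 12.4% lower over all genes. Of 27 MYC, nucleolar and ribosome assembly genes 10 were lower and 0 higher (median -0.45), among them NOP56 at 233 CPM against 430 CPM and the methyltransferase gene FBL at 165 CPM against 279 CPM. None of 85 ribosomal protein genes passed the limit (median 0.09 by CPM and -0.12 in UMIs per cell), nor did any of 13 mitochondrially encoded genes (median 0.23) or 78 nuclear genes of oxidative phosphorylation. Of 26 splicing factor genes 9 were lower, including HNRNPD at 218 CPM against 396 CPM. Of 18 genes of the integrated stress response 9 were lower, with the serine and folate enzymes PSAT1 (200.4 CPM against 391 CPM) and MTHFD2 (84.3 CPM against 178 CPM) among them, while ATF3, an early stress factor, had the highest ratio of the list (24.9 CPM against 17.5 CPM) and was within the limit. Among 12 heat shock genes 3 were lower, led by HSP90AA1 at 780 CPM against 1396 CPM. Of 28 lysosome and autophagy genes 6 were higher and 1 lower, with GABARAPL1, of autophagosome formation, at 36.1 CPM against 14.3 CPM. Most lipid genes were within the limit, with 1 of 21 cholesterol synthesis genes higher and 1 lower, and 1 of 14 fatty acid synthesis genes higher and 3 lower. The desaturase gene FADS1 (43.0 CPM against 101 CPM) and the sterol enzyme EBP (47.1 CPM against 98.2 CPM) were lower, and ELOVL5, a fatty acid elongase (278 CPM against 168 CPM), and TM7SF2, a sterol reductase (136 CPM against 75.5 CPM), were higher.

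Named genes were followed over 5 levels of the sum of the 5 genes. Of 44 named genes past the limit on the higher side, 19 were lower at each of the 4 steps to a larger sum and 32 at each of the 3 steps that follow a sum of 1. Of 58 on the lower side, 31 were higher at each of the 4 steps and 47 at each of the last 3. These counts take no account of counting error. The genes had been called on this same sum in the same cells. A move in the direction of the call is therefore largely set in advance, and the counts support nothing further. The share of such genes over all genes was not computed. ACPP stood at 142 CPM in cells with a sum of 0, 104 CPM at 1, 51.9 CPM at 2 to 4, 27.8 CPM at 5 to 19 and 15.0 CPM at 20 or more. TMPRSS2 had 240.1, 225, 155, 103 and 59.0 CPM at the same sums. The summed mitosis genes had 586, 670, 1069, 3011 and 7662 CPM, and the replication genes 515, 635, 964, 2351 and 3049 CPM. CCNE2 reached its full level earlier, with 111 CPM at a sum of 5 to 19 and 102 CPM at 20 or more, and MCM2 had 102 and 117 CPM there, whereas ASPM had 30.2 and 143 CPM. MALAT1 changed little between the upper levels (15417 and 15088 CPM) and stood at 36979 CPM at a sum of 0.

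**Figure D2:**
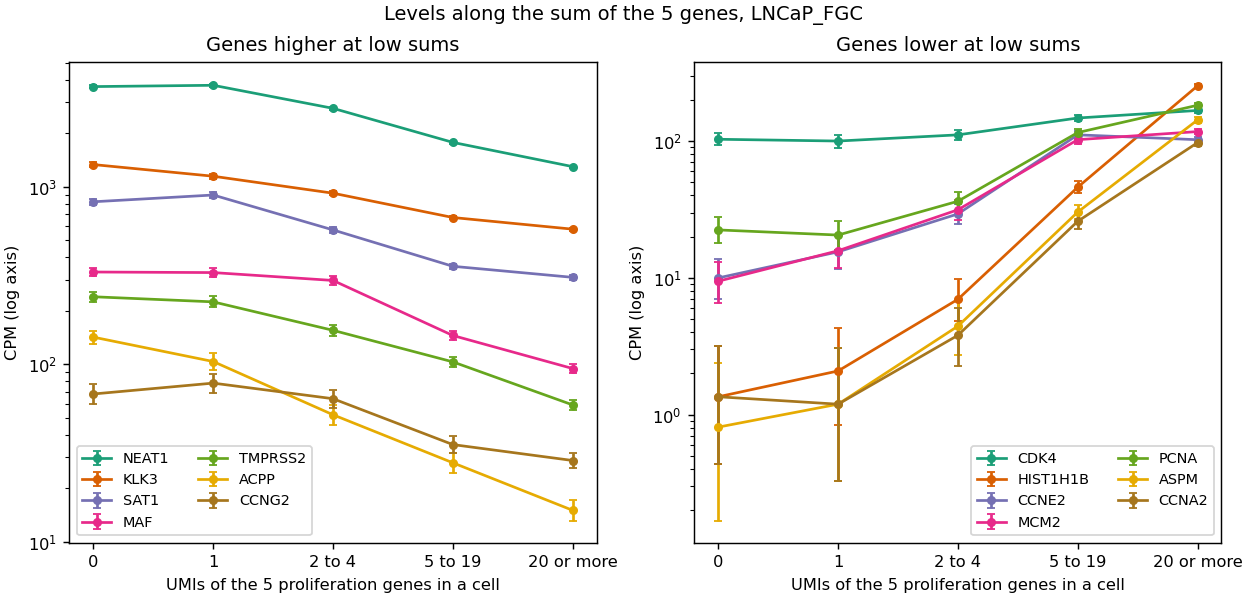
CPM (log axis) with exact Poisson 95% intervals in LNCaP_FGC cells grouped by their UMIs of the 5 proliferation genes (horizontal axis, 0 to 20 or more), for 7 genes higher and 7 genes lower at low sums. ACPP is lower at each step, with 142 CPM at a sum of 0 and 15.0 CPM at 20 or more, whereas CCNE2 levels off at 111 and 102 CPM.

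The marker-low cells differed among themselves. Among genes with a mean of at least 0.5 thinned UMIs, outside the ribosomal, mitochondrial and cell cycle lists, SAT1 varied most after MALAT1. SAT1 encodes the enzyme that starts polyamine breakdown (chromosome X, 23783173 to 23786210). It stood at 860 CPM in marker-low cells and 327 CPM in marker-high cells (2.63, 2.54 to 2.72). Its Fano factor (variance over mean of thinned UMIs, 1.13 for the median gene) was 43.8 in marker-low cells and 4.16 in marker-high cells. The median marker-low cell had 5 thinned SAT1 UMIs and the highest 222, against a median of 3 and a highest of 43 in marker-high cells. Cells with more than 20 thinned SAT1 UMIs, a limit chosen after the values were seen, numbered 28 of 365 marker-low cells (7.67%, 5.16 to 10.9), 11 of 232 cells with a sum of 2 to 4 (4.74%, 2.39 to 8.33) and 9 of 1068 marker-high cells (0.843%, 0.386 to 1.59).

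These 28 SAT1-rich cells held 47.4% of the SAT1 UMIs of the marker-low cells and stood apart in other genes, which are named after their values were seen. FTH1 and FTL, the ferritin chains that store iron, averaged 75.1 and 22.2 UMIs in SAT1-rich marker-low cells, against 21.7 and 8.59 in the other marker-low cells. SQSTM1, the autophagy receptor p62, averaged 17.0 UMIs against 3.20, the chaperone gene CLU 4.29 against 0.341, and BIRC3, an apoptosis inhibitor and a target of NF-kB, 2.96 against 0.119, with UMIs in 9 of the 28 cells. KLK3 was not among them, at 10.4 UMIs against 14.2. Without the SAT1-rich cells of both groups, the ratio of SAT1 itself at equal depth was 1.65, against 2.72 with them. After these cells were left out, 8 named genes came under the limit at equal depth. For 5 of them the ratio stood near the limit either way, at 1.48 without these cells against 1.63 with them for CDKN1A, 1.46 against 1.61 for TXNIP, 1.46 against 1.51 for PIK3R3 (a PI3K regulatory subunit gene), 1.43 against 1.62 for CLDN4 (a tight junction gene) and 1.42 against 1.65 for TAPBP. For HLA-B it was 1.46 without them against 1.82 with them, for ELF3 (an epithelial ETS factor) 1.25 against 1.81 and for CDKN1C 1.14 against 1.71. HLA-B and TAPBP belong to a list of 11 MHC class I and antigen processing genes. Of this list 3 were higher with all cells kept, against 5.69% of all genes.

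**Figure D3:**
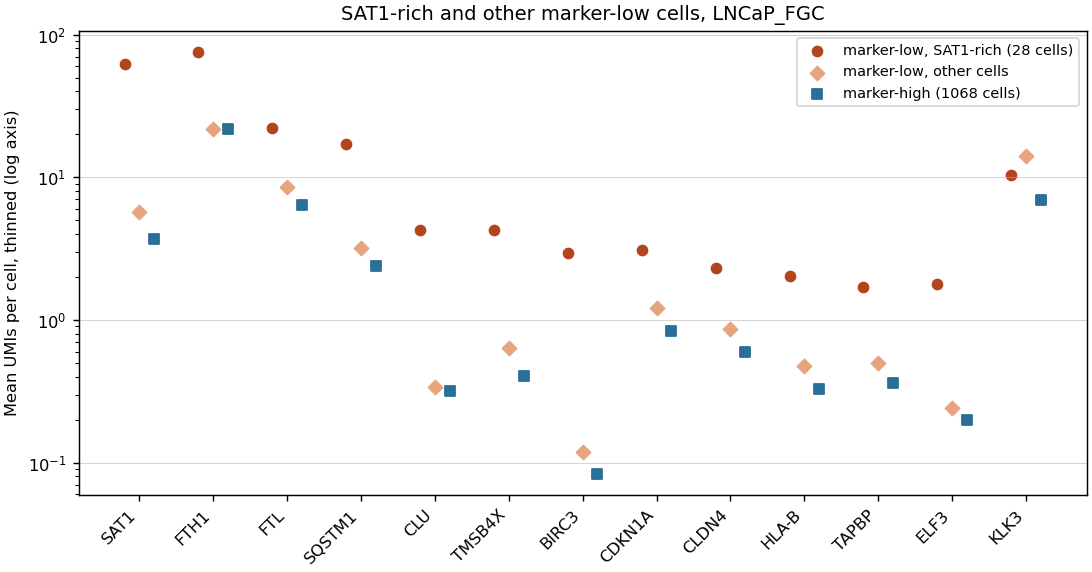
Mean UMIs per cell after thinning to 11452 UMIs (log axis) for 13 genes in SAT1-rich marker-low cells (circles, 28 cells), the other marker-low cells (diamonds) and marker-high cells (squares). FTH1 averages 75.1 UMIs in the SAT1-rich cells and 21.7 in the other marker-low cells, while KLK3 is lower in the SAT1-rich cells.

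A second axis among marker-low cells was ETV1, the ETS factor gene rearranged in this line. ETV1 had 187 CPM in marker-low cells and 139 CPM in marker-high cells (1.34, 1.26 to 1.43), and cells with 0 ETV1 UMIs were 131 of 412 marker-low (31.8%, 27.3 to 36.5) and 397 of 1176 marker-high cells (33.8%, 31.1 to 36.5). Within marker-low cells KLK3 stood at 297 CPM (274 to 321) with 0 ETV1 UMIs, 769 CPM with 1 and 1791 CPM (1751 to 1832) with 2 or more, and ACPP at 33.1, 47.1 and 182 CPM. PEG3 (102, 382 and 392 CPM) and SYT4 (43.3, 71.9 and 242 CPM) took the same direction. MAF took the other, at 607 CPM with 0 ETV1 UMIs, 422 CPM with 1 and 179 CPM with 2 or more. For TMPRSS2 the intervals at 0 (250.1 CPM, 229 to 273) and at 2 or more (235 CPM, 221 to 250.3) overlapped. With 1 ETV1 UMI TMPRSS2 was below both, at 173 CPM (144 to 205). In marker-high cells TMPRSS2 had 63.9 CPM (58.2 to 69.9) at 0, 83.0 CPM (73.0 to 93.9) at 1 and 80.5 CPM (75.7 to 85.6) at 2 or more. The marker-low cells were above the marker-high cells at either ETV1 level. With 0 ETV1 UMIs, KLK3 had 297 CPM in marker-low and 97.4 CPM in marker-high cells, ACPP 33.1 and 5.01 CPM and MAF 607 and 157 CPM. With 2 or more, KLK3 had 1791 and 955 CPM, ACPP 182 and 29.7 CPM and MAF 179 and 76.3 CPM. A cell with 0 ETV1 UMIs can still express the gene at this depth.

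**Figure D4:**
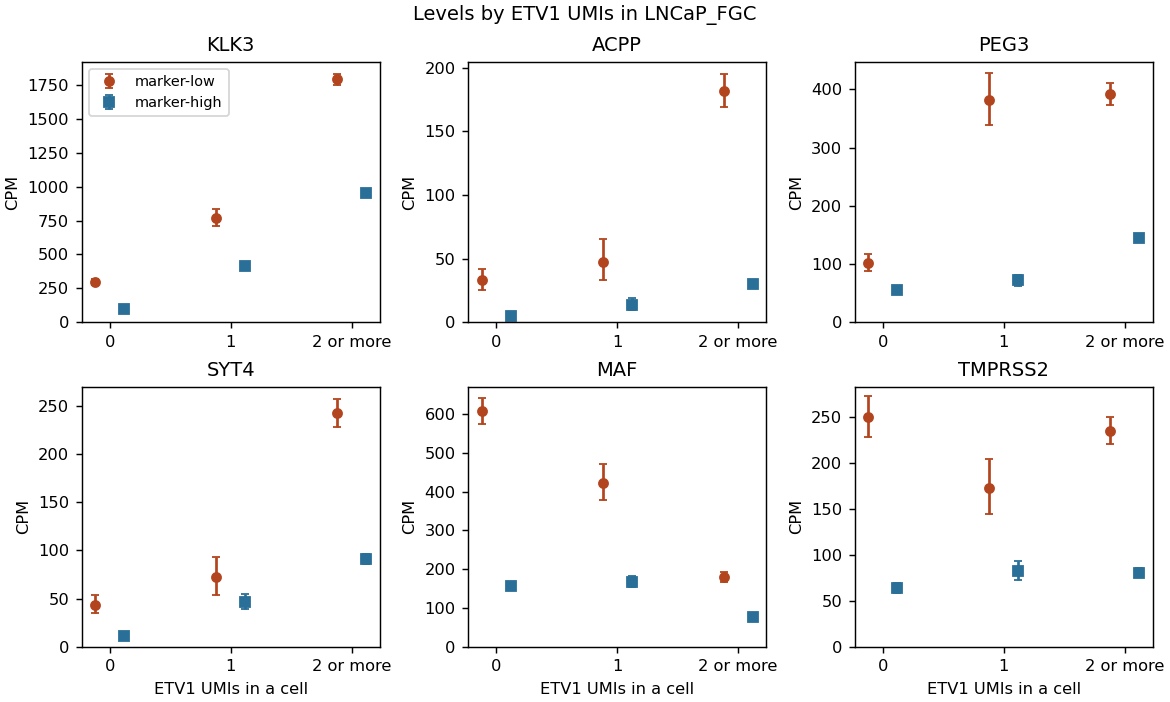
CPM with exact Poisson 95% intervals for 6 genes in LNCaP_FGC cells by their number of ETV1 UMIs (0, 1, 2 or more), with marker-low cells as circles and marker-high cells as squares. KLK3, ACPP, PEG3 and SYT4 are higher with 2 or more ETV1 UMIs than with 0 in both groups, MAF is lower, and marker-low cells lie above marker-high cells in every panel.

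The rule was also applied to LNCaP_C4-2B, a library it had not been set on. There 546 of 10592 genes were higher (5.15%) and 1504 lower (14.2%) in marker-low cells. Of 643 genes higher in LNCaP_FGC, 468 were kept in both lines, and 198 of these were higher in LNCaP_C4-2B too (42.3% of the 468, and 41.5% of the 477 higher genes of LNCaP_C4-2B kept in both) while 2 were lower. Of the 1404 lower genes 1274 were kept in both, and 905 were lower in LNCaP_C4-2B (71.0%, and 62.0% of the 1459 there) while 4 were higher. The mitosis list had all 50 genes lower in LNCaP_C4-2B (median -4.35) and the replication list all 42 (median -2.44). The antiproliferative and FOXO list had 12 of 27 higher (median 0.57) and the androgen-induced list 13 of 41 (median 0.25).

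Single genes at the upper end differed between the lines. TMPRSS2 stood at 245 CPM in marker-low and 97.9 CPM in marker-high cells of LNCaP_C4-2B (2.50, 2.35 to 2.66), MAF at 52.4 CPM against 11.2 CPM (4.67, 3.98 to 5.49) and NEAT1 at 3500 CPM against 1009 CPM (3.47, 3.41 to 3.53). KLK3 stood at 3588 CPM against 2443 CPM there, a log2 ratio of 0.55 against 1.02 in LNCaP_FGC. ACPP had 24 and 32 UMIs in marker-low and marker-high LNCaP_C4-2B cells (2.14, 1.20 to 3.74), and AGR2 stood at 39.4 CPM against 41.7 CPM (0.947, 0.829 to 1.08). MYC and nucleolar genes, with 10 of 27 lower in LNCaP_FGC, had 0 of 27 past the limit in LNCaP_C4-2B, and integrated stress response genes, with 9 of 18 lower, had 0 of 21 lower and 1 higher. The difference between the lines was not tested for any of these.

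**Figure D5:**
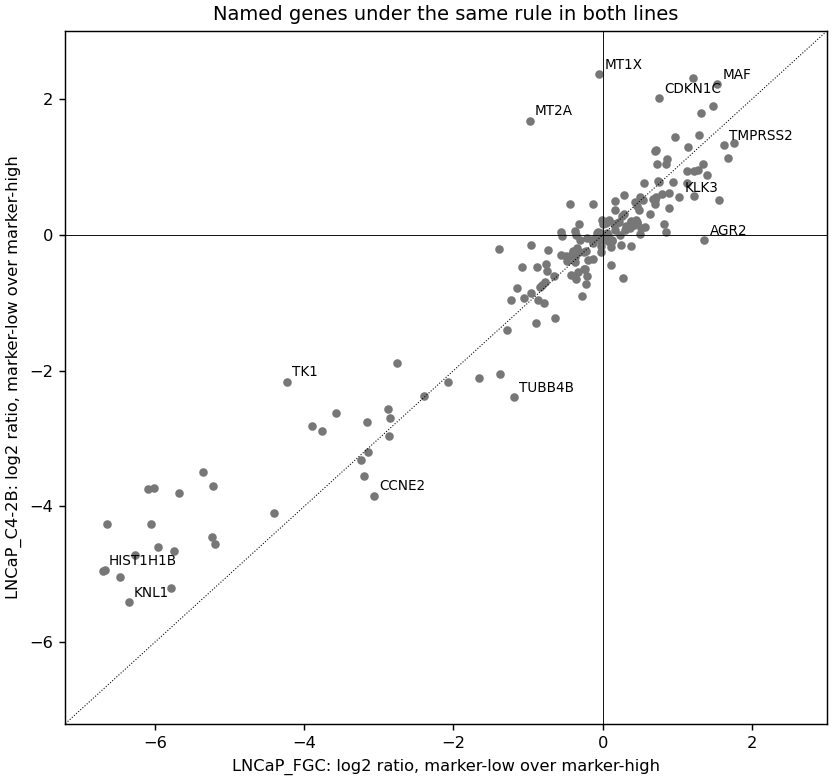
Log2 ratio of CPM in marker-low over marker-high cells for the named genes with at least 100 UMIs in each line, LNCaP_FGC on the horizontal and LNCaP_C4-2B on the vertical axis, with a dotted line of equal ratios. Genes of the cycle lie at the lower left, TMPRSS2 and MAF at the upper right, and MT2A at -0.98 and 1.68.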

How the data were processed

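The deposited matrices hold UMI counts per gene and cell of 2 libraries. Per the labels, the authors aligned reads to GRCh38 with Cell Ranger 6.0 and used Seurat 5.011. By the study's methods they removed cells by gene number, read number, transcript shares and doublet score, drew equal numbers of cells per line and thinned the counts to a common mean. No doublet caller was run here. The members, gene lists and rules were chosen with earlier results of these data known. Counts were summed per group of cells and scaled to CPM in Python 3.11.15. Intervals are exact (Poisson, Clopper-Pearson and conditional, 95%), and the ratio code was tested on simulated data. Named genes are the 12 highest and 12 lowest ratios with at least 50 CPM in the higher group, up to 2 members at each end of each of 46 lists with at least 20 CPM, and a fixed set, some of which are not reported here. For values per cell, each cell was thinned to 11452 UMIs, percentile 10 of UMIs per cell, leaving out 47 marker-low and 108 marker-high cells. Phases came from CellCycleScoring (Seurat 5.3.0, R 4.3.3), with 42 S and 51 G2M genes. TMM factors came from edgeR 4.0.16. Positions are GENCODE 44, found for 10751 of the 11308 genes. Alternatives changed the limits, markers, depth, scaling, cells entering and the gene minimum.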

Additional observations from a re-analysis of the deposited data

Results flagged for a closer look

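MT2A, a metallothionein gene that buffers metal ions, moved in opposite directions in the lines. Its log2 ratio of marker-low over marker-high cells was -0.98 in LNCaP_FGC, with 225 CPM in marker-low and 445 CPM in marker-high cells, and 1.68 in LNCaP_C4-2B, with 1142 CPM against 355 CPM. The difference between the lines was not tested. MT1X, of the same family, stood at 252 CPM against 261 CPM in LNCaP_FGC and at 476 CPM against 92.1 CPM in LNCaP_C4-2B. In LNCaP_FGC the Fano factor of MT2A was 12.3 in marker-low and 21.5 in marker-high cells.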

How the results depend on the processing

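The number of marker-low cells became 223 with a sum of 0, 546 with a sum of at most 2, and 465 of 1665 when each cell was first thinned to equal depth. The counts of genes at least 1.5-fold higher in marker-low cells and of genes at least 1.5-fold lower in marker-low cells were 302 and 2439 in UMIs per cell without scaling, 1339 and 2143 with a minimum of 20 UMIs per gene, 237 and 847 with a minimum of 500, and 137 and 654 with a 2-fold limit. The minimums change which genes enter and the 2-fold limit changes the threshold over the same genes, and the cause of the shift without scaling was not tested. Under the other 13 settings the counts were 508 to 776 higher and 1262 to 1580 lower. The genes behind these counts overlapped with the main comparison to differing degrees. With TMM factors 634 of 634 higher and 1404 of 1422 lower genes were also called there. Between percentiles 25 and 75 of UMIs per cell these were 367 of 510 and 1086 of 1320. Among cells with 0 ETV1 UMIs, where 8644 genes reached the minimum, they were 253 of 515 and 936 of 1273. Over 14 settings, 7 gene lists past 1.5-fold gave 98 values, of which 0 changed direction and 1 came under the limit, and 102 named genes past it gave 1417 values, of which 0 changed direction and 33 came under it. The log2 ratio of ACPP ranged from 2.13 to 3.04. No paired analysis was possible because each line has 1 library and the labels give no replicate numbers. With 1 UMI worth 0.142 CPM, ratios of genes under 10 UMIs in marker-low cells are known only within a several-fold interval.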

Other observations

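Counts for further signalling and stress lists stand beside 5.69% higher and 12.4% lower over all genes. Of 18 growth factor receptor and PI3K genes 1 was higher, which is near the share over all genes. It was the receptor gene IGF1R, at 93.8 CPM in marker-low cells and 54.3 CPM in marker-high cells of LNCaP_FGC. Of 12 Notch pathway genes the ligand gene JAG1 was higher (76.1 CPM against 40.5 CPM) and HES4, a transcriptional repressor gene, lower (45.1 CPM against 79.5 CPM). Among 23 glycolysis and hypoxia genes NDRG1, which is induced by low oxygen and by androgen, was higher (85.5 CPM against 38.8 CPM) and 1 was lower. Of 19 genes of protein folding in the endoplasmic reticulum 3 were higher, including HERPUD1, a gene of protein degradation there, at 72.3 CPM against 44.4 CPM, and ERN1, the sensor kinase IRE1, at 21.2 CPM against 13.3 CPM. Of 25 proteasome genes 24 were within the limit, and PSMC3 stood at 166 CPM against 287 CPM.

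Genes without a protein product made up 8.02% of the 586 higher genes with a position, 3.38% of the 1330 lower genes and 4.11% of all 10751. The median gene body was 38.4 kb among higher genes, 29.0 kb among lower genes and 33.4 kb over all.

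Apart from MT2A, 5 genes passed 1.5-fold in opposite directions in the lines, and they are named after their values were seen. CHTF18, which loads the replication clamp, stood at 21.1 CPM in marker-low and 44.7 CPM in marker-high cells of LNCaP_FGC, and at 63.2 CPM against 35.6 CPM in LNCaP_C4-2B. MANEA, a glycan-trimming enzyme gene, stood at 78.7 CPM against 46.6 CPM in LNCaP_FGC and at 4.62 CPM against 9.06 CPM in LNCaP_C4-2B. RHBDF2, SLC9A8 and AC079922.2 had under 12 CPM in every group. The differences between the lines were not tested.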
